A study of Rattus norvegicus with 84 samples.

Results

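The 35 genes described here drive cell division. They were measured as mRNA in extracellular vesicles (EVs), the membrane-bound particles that cells release, isolated from the brain and the plasma of rats after stroke. The symbols were selected from textbook roles by a procedure that had earlier results of these same counts in view, and the selection holds no threshold on a measured value. Every level and every call below is therefore a description and not independent support for the list. All 35 symbols were found among the 18782 annotated genes of the count table. They fall into 6 role groups, with 7 mitotic kinases and cyclins, 5 genes of the spindle checkpoint and anaphase-promoting complex, 6 of the kinetochore and chromosomal passenger complex, 8 spindle and cytokinesis genes, 2 genes of mitotic chromosome structure and 7 genes of DNA replication and nucleotide supply.

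The 21 male wild-type Sprague-Dawley rats, aged 8 to 12 weeks, formed 7 groups of 3. In 6 groups the middle cerebral artery was occluded for 90 min, while 1 group stayed healthy, without stroke. Of the stroke groups, 3 received saline (control) and 3 received human neural stem cells (hNSCs) through the carotid artery 3 days after stroke, and EVs were taken from the ipsilateral hemisphere and from plasma 4, 10 or 31 days after stroke. The hNSCs groups at 4 days had thus carried the cells for a single day. EVs of brain and of plasma were isolated by different procedures, and since the graft is human while reads were counted on rat genes, RNA of the graft was not separated here.

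A dividing cell first copies its DNA, for which the MCM helicase opens the double helix, PCNA clamps the polymerases to it, and ribonucleotide reductase and thymidylate synthase supply nucleotides. Cyclin-dependent kinase 1 with its A-type and B-type cyclins then starts mitosis, Aurora and Polo-like kinases build the spindle, kinesin motors move it, and checkpoint kinases hold the anaphase-promoting complex until every kinetochore is attached. Most of these transcripts are made from S phase to mitosis and are scarce in resting tissue such as adult brain. Microglia, astrocytes and invading myeloid cells are known to divide in the hemisphere injured by stroke.

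These genes are known to be switched by short promoter words, and 4 promoters are printed because their genes were among those whose brain EV libraries at 4 days after stroke all lay above the healthy ones. RefSeq promoters of rat build GRCr8, with 250 bases before and 50 after the transcript start, were matched by symbol for 30 of the 35 genes. Ccna2, Ube2c, Aurkb, Tpx2 and Rrm2 were not matched. Capitals mark the CCAAT box (CCAAT), the cell cycle homology region (TTTGAA or TTCGAA) and the E2F site (TTTCCCGC, TTTCGCGC, TTTGCCGC or TTTGGCGC), each searched on both strands. Matches may overlap and then share 1 run of capitals.
Mki67, chr1:199952544-199952843, minus strand: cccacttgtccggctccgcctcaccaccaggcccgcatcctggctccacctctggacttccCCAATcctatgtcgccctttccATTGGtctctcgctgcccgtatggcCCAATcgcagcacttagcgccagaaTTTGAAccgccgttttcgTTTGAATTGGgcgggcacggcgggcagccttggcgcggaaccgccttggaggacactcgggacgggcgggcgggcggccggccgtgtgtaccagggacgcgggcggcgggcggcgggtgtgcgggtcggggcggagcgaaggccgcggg
Top2a, chr10:84473044-84473343, minus strand: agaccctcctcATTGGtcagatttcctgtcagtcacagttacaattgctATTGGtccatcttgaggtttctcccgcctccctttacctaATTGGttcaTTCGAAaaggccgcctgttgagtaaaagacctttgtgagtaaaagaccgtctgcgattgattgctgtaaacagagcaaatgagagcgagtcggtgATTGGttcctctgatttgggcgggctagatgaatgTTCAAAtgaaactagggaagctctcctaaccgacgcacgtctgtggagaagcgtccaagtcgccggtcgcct
Cenpf, chr13:103760837-103761136, minus strand: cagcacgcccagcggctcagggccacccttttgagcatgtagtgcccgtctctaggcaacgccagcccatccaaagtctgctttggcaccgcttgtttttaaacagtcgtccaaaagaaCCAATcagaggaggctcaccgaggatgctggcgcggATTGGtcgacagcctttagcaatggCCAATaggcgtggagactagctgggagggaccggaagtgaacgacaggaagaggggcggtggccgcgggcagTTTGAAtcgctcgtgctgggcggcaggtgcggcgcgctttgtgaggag
Mcm6, chr13:42404303-42404602, minus strand: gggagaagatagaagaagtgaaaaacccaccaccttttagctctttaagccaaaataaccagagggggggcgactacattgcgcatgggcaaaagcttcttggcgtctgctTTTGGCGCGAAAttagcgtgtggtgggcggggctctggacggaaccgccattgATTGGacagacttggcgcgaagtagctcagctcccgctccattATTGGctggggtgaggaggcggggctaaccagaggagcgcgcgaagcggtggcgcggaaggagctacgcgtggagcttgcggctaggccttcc

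The mitotic and the replication promoters shared the CCAAT box and were unlike in the other words. A CCAAT box stood in 18 of 24 mitotic and 4 of 6 replication promoters, which was 73.3% of the 30 matched, and in 37.5% of all 33469 promoters of the table. The cell cycle homology region stood in 60.0% of the 30 and in 19.7% of all promoters, with matches in 17 of 24 mitotic and 1 of 6 replication promoters. The E2F site was matched in 5 of the 6 replication promoters and in 1 of the 24 mitotic ones, that of Cdk1, against 2.14% of all promoters. A CCAAT box together with a homology region was found in 14 mitotic promoters, in 0 replication promoters and in 7.95% of all promoters. The Mki67 and Top2a promoters each held 4 CCAAT boxes and 2 homology regions, that of Cenpf held 3 and 1, and that of Mcm6 held 2 CCAAT boxes and 2 E2F matches. These are matches of letters, and no binding was measured.

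Detection of the 35 genes was patchy. Annotated genes took 569136 to 15587216 counts per brain library, which was 3.18 to 51.9% of its counts, and 45.1 to 75.6% of the counts in plasma. Levels are given as CPM, the count relative to all annotated counts of the library with TMM scaling, and genes are ordered among themselves only by the authors' FPKM, which is per kilobase of transcript. In brain EVs 50.2% of the 735 values of the 35 genes were 0 and the others had a median of 47 counts. In plasma EVs 30.2% were 0 and the others had a median of 317 counts, with only 2 of these under 10, so that a gene could be at 0 in a library beside a high count in another of its group. Only Anln in the brain and Pcna in plasma had counts in all 21 libraries of the tissue. The brain library hNSCs 10 days replicate 3 stood apart, with the lowest annotated total and 1 of the 35 genes, Anln.

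**Figure D1:**
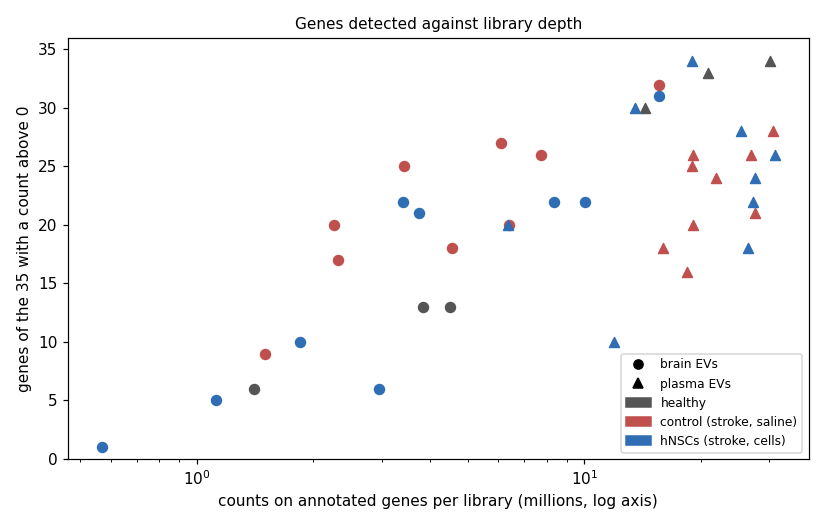
Number of the 35 genes with counts in each library (vertical axis) against the counts on annotated genes (horizontal axis, log scale), for brain and plasma libraries of the healthy, control and hNSCs groups. Healthy brain libraries show 6 to 13 of the genes, and the brain library with 569136 annotated counts shows 1.

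Brain EVs carried more of these transcripts after stroke, most at 4 days. The summed level of the 35 genes was 93.9 to 127 CPM in the healthy libraries (113 ± 16.8, mean ± SD, n = 3). In the controls it was 517 to 1056 CPM at 4 days (778 ± 270), 219 to 563 CPM at 10 days (376 ± 174) and 137 to 211 CPM at 31 days (177 ± 37.4). At each time all control libraries lay above all healthy ones, with means 6.92-fold, 3.34-fold and 1.58-fold the healthy mean. Without the replication genes the libraries at 31 days overlapped the healthy ones. With the total of all counts as the scale the log2 ratio of the means was 3.63 in place of 2.79 at 4 days and 2.25 in place of 0.66 at 31 days, where the annotated share was 30.3 to 43.0% against 7.11 to 20.9% in healthy libraries. The 3 comparisons share the healthy libraries.

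**Figure D2:**
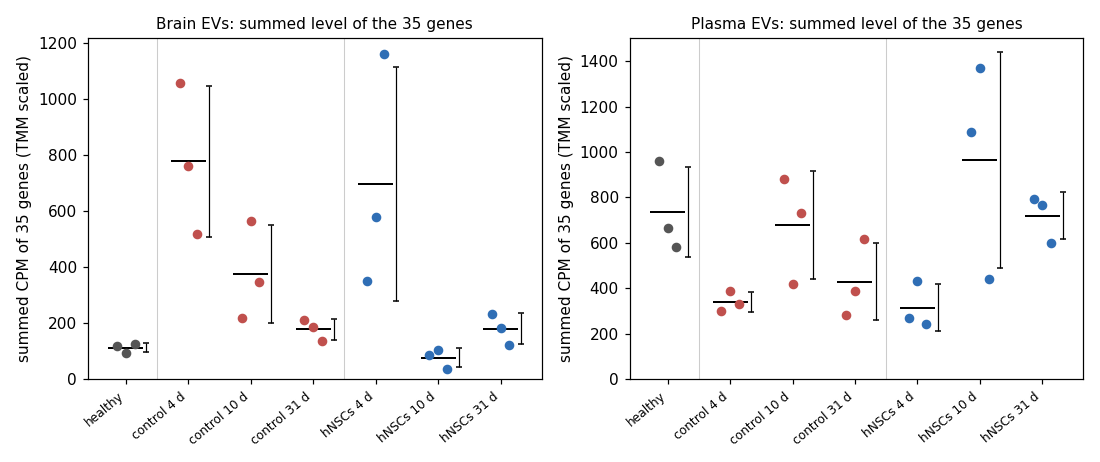
Summed CPM of the 35 genes (vertical axis) in the 3 libraries of each group (points), with mean and SD, in brain EVs and plasma EVs. In the brain the controls at 4 days sit at 517 to 1056 CPM above healthy libraries at 93.9 to 127 CPM, and in plasma the controls at 4 days sit at 299 to 386 CPM below healthy libraries at 580.0 to 962 CPM.

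At 4 days 31 of the 35 genes had a higher mean CPM in control than in healthy brain EVs, as did 47.4% of the 16992 annotated genes detected in the brain. The others were Melk and Tyms, which had a lower mean, and Cdk1 and Nusap1, which had no counts in either group. For 7 of the 35 genes (20.0%) every control library lay above every healthy one, and for 0 below, against 11.9% and 8.9% of all detected genes. These were Mki67, Top2a, Cenpe, Cenpf, Bub1b, Mcm3 and Mcm6, of which Cenpf and Mcm6 are named after their values were seen. The edgeR quasi-likelihood test kept 27 of the 35 genes past its filter on low counts and called 1 of them, Mki67, at an adjusted p under 0.05 and a fold above 1.5, as it did 0.861% of 14515 genes. At an unadjusted p under 0.05 there were 13 members, and DESeq2 called 7, which were Bub1b, Cdca8, Cenpe, Cenpf, Mcm3, Mki67 and Top2a, all higher. Here and below, no share of all genes is given for the unadjusted p or for DESeq2. Those counts therefore do not show whether the members differed from genes in general.

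In 5 of the 6 role groups the controls at 4 days lay wholly above the healthy libraries. The 5 checkpoint and anaphase-promoting genes had no counts in any healthy brain library and summed to 31.2 to 55.4 CPM in the controls. The 2 genes of chromosome structure went from 5.75 to 9.52 CPM in healthy libraries to 153 to 340.4 CPM, and the 6 kinetochore and passenger genes from 0 to 29.3 CPM to 135 to 261 CPM. The 7 replication genes went from 21.4 to 29.7 CPM to 84.2 to 124 CPM and the 8 spindle and cytokinesis genes from 37.0 to 61.8 CPM to 93.1 to 182 CPM. The 7 kinases and cyclins made the other group, and their 20.6 to 103 CPM overlapped the healthy 8.64 to 26.6 CPM.

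Mki67, which coats mitotic chromosomes and is the usual marker of dividing cells, held 18.0 to 22.9% of the summed level at 4 days. It stood at 0, 9.52 and 1.97 CPM in healthy brain EVs, at 237, 137 and 118 CPM in the controls at 4 days, at 9.37, 147 and 83.1 CPM at 10 days and at 15.4, 15.1 and 6.78 CPM at 31 days. All libraries at 4 days lay above the healthy ones, whereas those at 10 and 31 days overlapped them. The log2 fold change at 4 days was 5.26 ± 1.14 (SE) with an edgeR adjusted p of 0.0255, which rose to 0.126, 0.0553, 0.150 and 0.163 without control 4 days replicate 1, control 4 days replicate 2, healthy replicate 1 and healthy replicate 3. At 10 days it was 4.22 ± 1.09 with an edgeR adjusted p of 0.0798, which became 0.0145 without control 10 days replicate 1 and 0.0476 without hNSCs 10 days replicate 3.

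Top2a, the topoisomerase that untangles sister chromatids, stood at 5.75, 0 and 3.94 CPM in healthy brain EVs, at 103, 91.4 and 34.4 CPM at 4 days, at 9.37, 46.2 and 26.6 CPM at 10 days and at 8.45, 7.92 and 0 CPM at 31 days. Its libraries at 4 and at 10 days all lay above the healthy ones. The log2 fold change at 4 days was 4.63 ± 1.38 (edgeR adjusted p = 0.112).

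The kinetochore motor Cenpe, which carries chromosomes to the spindle equator, was at 0, 0 and 7.32 CPM in healthy brain EVs, at 94.9, 36.03 and 77.3 CPM at 4 days, at 17.9, 38.7 and 74.5 CPM at 10 days and at 16.2, 15.2 and 8.52 CPM at 31 days. It was the one gene whose control libraries lay above the healthy ones at all 3 times (log2 fold change at 4 days 4.75 ± 1.53, edgeR adjusted p = 0.138). Aurkb, the kinase of the passenger complex, showed no such order, at 0, 0.664 and 18.9 CPM in healthy brain EVs and 12.3, 20.8 and 0, then 11.1, 12.6 and 0, then 5.06, 6.21 and 21.6 CPM in the controls at 4, 10 and 31 days.

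The checkpoint kinase Bub1b had no counts in the healthy brain and stood at 23.3, 32.5 and 31.2 CPM at 4 days, at least 88.8-fold higher with 3 counts over the healthy group as the floor. Later it was at 7.67, 11.7 and 0 CPM at 10 days and 1.05, 0.66 and 1.42 CPM at 31 days. Cdc20, the activator of the anaphase-promoting complex, also had no healthy counts, and the controls were at 6.85, 12.5 and 0, then 0, 0 and 28.6, then 2.22, 2.9 and 0 CPM, with a library at 0 at each time. For Bub1b all libraries at 4 and at 31 days had counts, which was so for Cdc20 at no time.

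Among the replication genes, the helicase subunit Mcm3 stood at 0, 1.77 and 5.63 CPM in healthy brain EVs, at 38.7, 21.4 and 20.8 CPM at 4 days, at 15.3, 26.6 and 0 CPM at 10 days and at 7.34, 5.41 and 2.21 CPM at 31 days, above every healthy library at 4 days alone (log2 fold change 3.39 ± 1.45, edgeR adjusted p = 0.264). Pcna, the sliding clamp, was at 0, 3.99 and 0 CPM in healthy libraries and at 14.05, 12.8 and 3.46, then 2.56, 27.05 and 0, then 12.02, 9.24 and 8.83 CPM in the controls, and it lay above the healthy libraries at 31 days alone. By FPKM over all 21 brain libraries Pcna was the highest of the 35 genes at 0.437 ± 0.490 (SD), followed by Anln at 0.347 ± 0.342 and Prc1 at 0.340 ± 0.283, which do not differ beyond their spread, and Melk was the lowest at 0.00527.

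The regulators of mitotic entry were sparse in the brain. Cdk1 was detected in 3 of 21 brain libraries, at 6.53 CPM in control 10 days replicate 2, at 1.32 CPM in control 31 days replicate 2 and at 1.18 CPM in hNSCs 31 days replicate 2. Its B-type cyclin Ccnb1 had no counts in healthy libraries and 37.5, 6.25 and 0, then 2.56, 0.933 and 0, then 1.36, 0.924 and 1.1 CPM in the controls, so that only the libraries at 31 days, at low level, all lay above. The Aurora kinase Aurka, which matures the spindle poles, was at 5.03, 0 and 0 CPM in healthy libraries and at 26.6, 10.4 and 0, then 12.4, 0 and 6.65, then 6.35, 6.87 and 4.42 CPM in the controls, overlapping at each time.

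Kif23, a kinesin of cytokinesis, was at 0, 4.21 and 10.7 CPM in healthy libraries and at 28.6, 23.5 and 0, then 4.69, 0 and 0, then 4.25, 2.77 and 0 CPM in the controls, overlapping. Anln, the anillin scaffold of the cleavage furrow, was the one gene with counts in every brain library. It stood at 30.2, 26.1 and 23.6 CPM in healthy brain EVs and at 54.6, 31.6 and 20.8, then 43.9, 22.8 and 30.6, then 45.5, 26.7 and 24.9 CPM in the controls. The groups overlapped at each time, and the log2 fold change at 4 days was 0.42 ± 0.69.

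**Figure D3:**
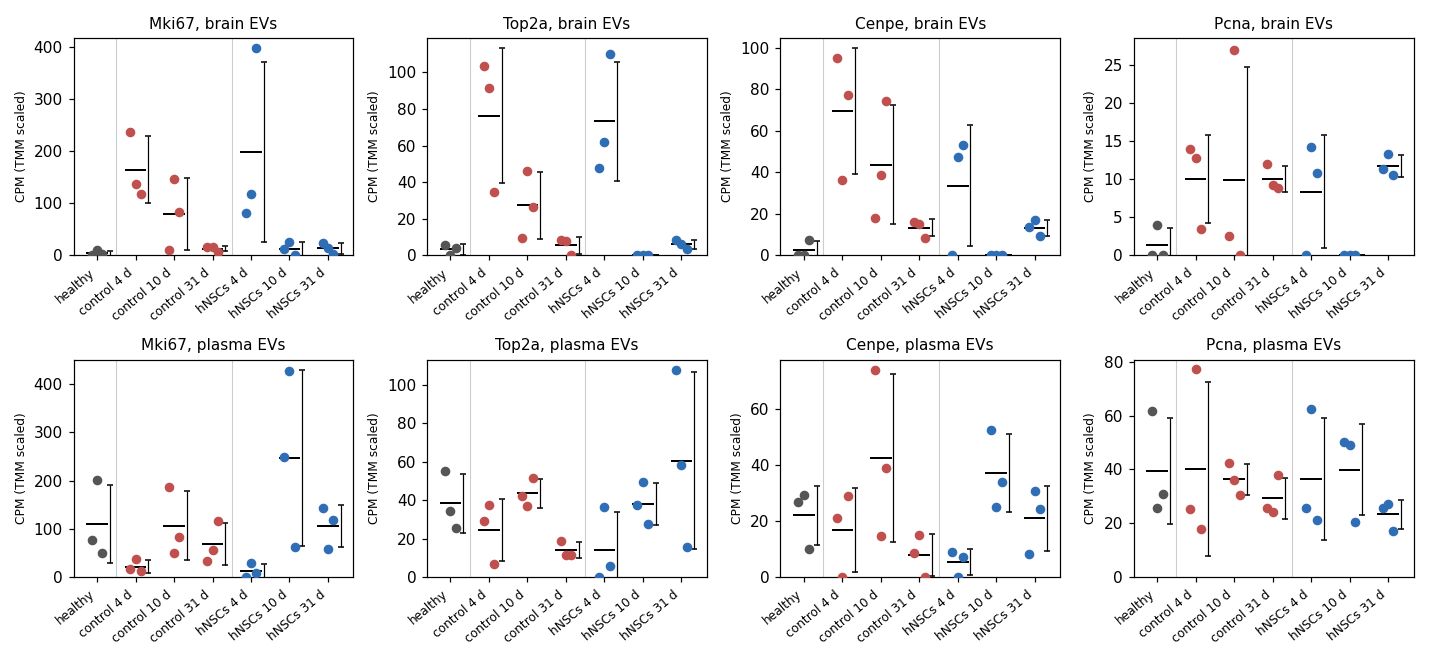
CPM of 4 genes, Mki67, Top2a, Cenpe and Pcna, in the 3 libraries of each group (points) with mean and SD, in brain EVs and plasma EVs. Brain Mki67 is at 118 to 237 CPM in the controls at 4 days and at 0 to 9.52 CPM in healthy libraries, and brain Top2a, Cenpe and Pcna are at 0 in the 3 hNSCs libraries at 10 days.

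At 10 days 21 of the 35 genes had a higher mean in control than in healthy brain EVs (45.1% of all genes), and 7 had no counts in either group. Every control library lay above for 3 genes, Cenpe, Prc1 and Top2a, and below for 0, as for 6.1% and 6.06% of all genes. Prc1, which bundles the microtubules of the central spindle and is named after its values were seen, was at 39.2, 40.6 and 45.2 CPM against 0, 6.64 and 18.3 CPM. At 31 days 30 of the 35 means were higher (64.1% of all genes). Only 4 genes (11.4%) then lay wholly above, Ccnb1, Bub1b, Cenpe and Pcna, and 0 below, against 17.9% and 5.52% of all genes.

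EdgeR called 0 of the 35 genes at 10 days and 0 at 31 days, and 0.572% and 0.00689% of all genes. At an unadjusted p under 0.05 there were 8 and 1 members, and DESeq2 called 3 and 1. The mean of the 3 control groups against healthy gave 0 members by edgeR (0.186% of all genes), 8 at an unadjusted p under 0.05 and 4 by DESeq2.

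Markers of other cell types moved in the same brain libraries. The 6 macrophage and monocyte markers (Cd68, Cd14, Lyz2, Ms4a7, Spp1 and Gpnmb) summed to 14.4 to 23.9 CPM in healthy libraries, with Cd14, Ms4a7 and Spp1 at 0. In the controls, with Ms4a7 at 0, they summed to 783 to 1714 CPM at 4 days, 58.0 to 1907 CPM at 10 days and 57.1 to 140.4 CPM at 31 days. From healthy to 4 days, the 7 microglia markers went from 55.4 to 76.9 CPM to 275 to 539 CPM, the 5 astrocyte markers from 1022 to 1066 CPM to 3127 to 3491 CPM, the 5 oligodendrocyte precursor markers from 274 to 346 CPM to 589 to 678 CPM and the 5 markers of neural stem cells and neuroblasts from 120.0 to 192 CPM to 257 to 473 CPM, all detected in both groups. The 5 neuron markers were lower, at 2141 to 2745 CPM in healthy libraries and 1015 to 1726 CPM at 4 days, and the 5 endothelial markers overlapped, at 86.9 to 131 and 94.6 to 145 CPM. Their part in the result was not tested. In EVs, more vesicles from dividing cells and more transcript per vesicle cannot be told apart.

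**Figure D4:**
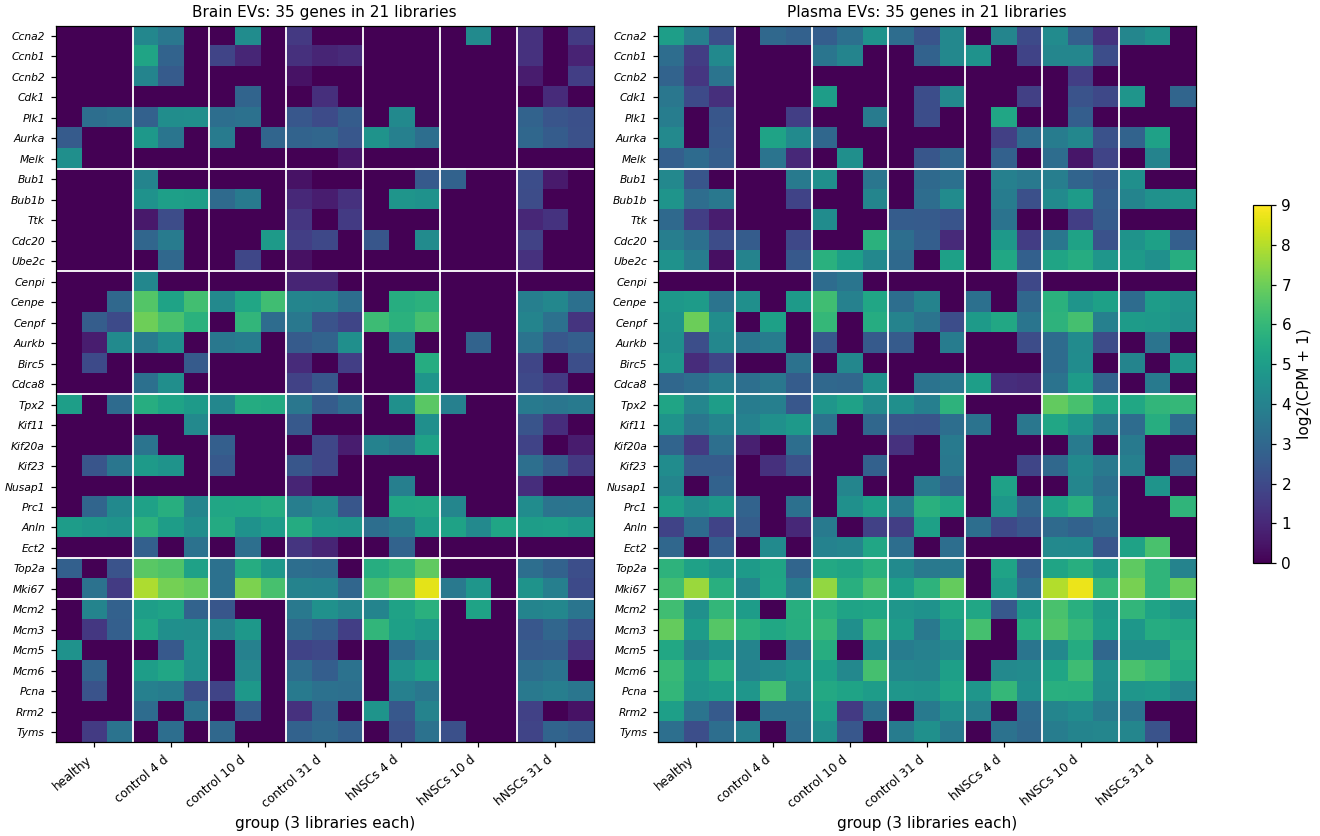
Level of the 35 genes (rows, ordered by role group) as log2(CPM + 1) in the 21 brain and 21 plasma EV libraries (columns, 3 per group). In the brain 50.2% of the values are 0 and in plasma 30.2%, and in the hNSCs brain libraries at 10 days 26 of the 35 genes are at 0 in all 3.

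The hNSCs and saline groups were compared at each time. At 4 days, a single day after the cells were given, the summed level in brain EVs was 350 to 1163 CPM with hNSCs (697 ± 419) and overlapped the controls. The hNSCs mean was higher for 12 of the 35 genes (36.7% of all genes), and for 5 with the total of all counts as the scale. Kif20a alone, a kinesin of cytokinesis named after its values were seen, lay wholly above the controls, at 15.01, 11.4 and 34.8 against 10.1, 0 and 0 CPM, and 0 genes lay below, as for 2.27% and 5.9% of all genes. EdgeR called 0 members and 0% of all genes, 2 members had an unadjusted p under 0.05, and DESeq2 called 0.

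Mki67 stood at 80.4, 117 and 397 CPM with hNSCs at 4 days, with replicate 3 above every control and replicates 1 and 2 below every control. Top2a was at 47.7, 61.7 and 109.9 CPM, within or just above the range of the controls. Replicate 1 had no counts of Cenpe, Bub1b or Pcna. Cenpe was at 0, 47.5 and 53.1 CPM over the 3 libraries. Bub1b was at 0, 24.7 and 22.8 CPM. Pcna was at 0, 14.2 and 10.8 CPM, and all 3 genes overlapped the controls. Kif23 had no counts with hNSCs at 4 days, at least 52.7-fold lower than the controls (29.3-fold and 79.2-fold without control 4 days replicates 1 and 3), although a control library was at 0 as well (edgeR adjusted p = 0.522). Ccnb1 had none either. Mcm3 stood at 60.1, 33.6 and 28.3 CPM, with replicate 1 above every control. Aurka, at 23.6, 14.2 and 8.56 CPM, had counts in all 3 libraries. Both overlapped the controls. Aurkb was at 0, 13.4 and 0 CPM, with counts in 1 library. Cdc20 was at 4.29, 0 and 19.4 CPM. Anln was at 8.58, 12.2 and 31.1 CPM, with the lowest value of all brain libraries in replicate 1. All 3 genes overlapped the controls.

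At 10 days the hNSCs brain libraries had the lowest mean summed level of the 7 groups. It was 87.0, 105 and 37.7 CPM (76.5 ± 34.7), which overlapped the healthy libraries at 93.9 to 127 CPM and lay below all controls at 219 to 563 CPM and 0.203-fold their mean. Without hNSCs 10 days replicate 3, the library of lowest depth, the ratio was 0.255. Replicate 2, which stayed in that ratio, was also below every control in annotated counts (1123445) and in genes detected (8662). The hNSCs mean was lower for 25 of the 35 genes (56.4% of all genes) and higher for 2, Bub1 and Mcm2, while 8 had no counts in either group. Cenpe, Tpx2, Prc1 and Top2a lay wholly below the controls (11.4% of the 35) and 0 genes above, as for 6.09% and 1.38% of all genes, and without replicate 3 the same 4 lay below, against 7.78% of all genes.

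Top2a had no counts in the hNSCs libraries at 10 days and 9.37, 46.2 and 26.6 CPM in the controls, at least 41.2-fold lower with 3 counts over the group as the floor, and 24.7-fold without control 10 days replicate 2. Cenpe was at 0 against 17.9, 38.7 and 74.5 CPM, at least 60.7-fold lower. Mki67 was at 11.4, 25.7 and 0 CPM against 9.37, 147 and 83.1 CPM, which overlapped (log2 fold change -2.63 ± 1.03, edgeR adjusted p = 0.329). The genes Mcm3, Pcna, Bub1b, Cdc20, Aurka, Kif23, Ccnb1 and Cdk1 had no counts with hNSCs, but each also had a control library at 0. Aurkb was at 0, 6.21 and 0 CPM, and Anln, at 35.2, 17.7 and 37.7 CPM, overlapped its controls at 22.8 to 43.9 CPM.

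EdgeR called 0 of the 35 genes at 10 days and 0% of all genes. At an unadjusted p under 0.05 there were 10 members, and DESeq2 called 5, Cenpe, Cenpf, Mcm3, Pcna and Top2a, all lower. The edgeR adjusted p of Top2a was 0.161, and over its alternatives it lay between 0.000238 in DESeq2 and 1.00. Depth and markers moved with the groups in part. Annotated counts were 569136 to 2955945 with hNSCs and 1500439 to 2317700 in the controls. Annotated genes with counts numbered 6190 to 12293 per library with hNSCs and 10698 to 12856 in the controls. The macrophage and monocyte markers summed to 22.6 to 349 CPM (Cd14 and Ms4a7 at 0) and 58.0 to 1907 CPM. The part of depth, detection and markers in the result was not tested.

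At 31 days the arms overlapped. The summed level was 123 to 234 CPM with hNSCs and 137 to 211 CPM in the controls, a ratio of 1.01, and the hNSCs mean was higher for 18 of the 35 genes (50.2% of all genes). For 0 genes did the libraries lie wholly above or wholly below, as they did for 3.15% and 2.64% of all genes. Mki67 was at 23.5, 13.7 and 3.02 CPM with hNSCs (log2 fold change 0.11 ± 0.94). Top2a was at 8.51, 6.18 and 3.51 CPM (0.15 ± 1.17). Cenpe was at 13.6, 16.98 and 9.07 CPM (-0.01 ± 1.29). These 3 genes were thus within 1 SE of no difference. Pcna was at 11.4, 13.3 and 10.5 CPM (0.23 ± 1.73), the one group in which all its libraries exceeded 10 CPM. Aurka was at 7.1, 5.2 and 3.75 CPM and overlapped its controls. Aurkb was at 9.74, 4.42 and 5.56 CPM, which overlapped too. Mcm3, Kif23 and Anln also had counts in all 3 libraries with hNSCs. Mcm3 was at 4.41, 6.77 and 3.87 CPM. Kif23 was at 8.82, 5.1 and 1.81 CPM. Anln was at 31.2, 32.8 and 28.3 CPM. The other 4 genes had a library at 0. Bub1b was at 3.25, 0 and 0 CPM. Cdc20 was at 2.39, 0 and 0 CPM. Ccnb1 was at 1.41, 0 and 0.847 CPM. None of these genes lay wholly to 1 side of its controls.

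EdgeR called 0 members and 0% of all genes at 31 days, 1 member had an unadjusted p under 0.05, and DESeq2 called 0. The mean of the hNSCs groups against that of the controls gave 0 members by edgeR (0% of all genes), 8 at an unadjusted p under 0.05 and 2 by DESeq2, Cenpe and Top2a, both lower. The change of the hNSCs effect between the times gave 0 members by edgeR (0% of all genes), 5 at an unadjusted p under 0.05 and 1 by DESeq2, Top2a.

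In plasma EVs the healthy rats were among the highest, and the controls at 4 days were low. The summed level was 580.0 to 962 CPM in healthy libraries (736 ± 200.1, n = 3) and 299 to 386 CPM in the controls at 4 days (339 ± 44.3), wholly below and 0.460-fold the healthy mean. It was 420.0 to 883 CPM at 10 days (679 ± 236) and 283 to 616 CPM at 31 days (429 ± 170.2), which overlapped the healthy libraries. By summed FPKM the libraries at 4 days overlapped the healthy ones too, with the mean 0.521-fold. Of the 35 genes 29 had counts in all 3 healthy libraries and 8 in all 3 controls at 4 days. Annotated counts were 16001322 to 26996429 in those controls and 14369005 to 30215730 in healthy libraries. Of all annotated genes, 9962 to 12294 per library had counts in those controls and 11819 to 13661 in healthy libraries. The part of depth and of detection in general was not tested.

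At 4 days the control mean was lower for 29 of the 35 genes (48.3% of all genes) and higher for 5 (36.6%). For 10 genes (28.6%) every control library lay below every healthy one and for 0 above, against 6.92% and 3.33% of the 17965 genes detected in plasma. The 10 were Cdk1 with its cyclins Ccnb1 and Ccnb2, the checkpoint kinases Bub1b and Ttk, the spindle genes Tpx2, Kif23 and Prc1, and Mki67 and Mcm6, of which Bub1b, Kif23, Prc1 and Mcm6 are named after their values were seen. EdgeR called 0 of the 35 genes and 0.0679% of 14720 genes. At an unadjusted p under 0.05 there were 5 members, and DESeq2 called 4, Ccnb1, Cdk1, Nusap1 and Ttk, all lower.

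Ccnb1 stood at 8.23, 2.09 and 18.5 CPM in healthy plasma EVs and had no counts in the controls at 4 days, at least 258-fold lower with 3 counts over the group as the floor, and 162-fold without healthy replicate 3. At 10 days it was at 10.4, 15.5 and 0 CPM and at 31 days at 0, 6.13 and 17.2 CPM. Among the controls the loss of all counts was thus seen at 4 days alone, but the hNSCs libraries at 31 days had none either. Ccnb2 was at 6.3, 1.66 and 10.1 CPM in healthy libraries and at 0 in the controls at all 3 times, at least 165-fold, 127-fold and 184-fold lower.

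Cdk1 was at 10.8, 3.05 and 1.31 CPM in healthy plasma EVs, at 0 at 4 days (at least 153-fold lower, and 45.4-fold without healthy replicate 1), at 31.03, 0 and 0 CPM at 10 days and at 0, 3.35 and 17.95 CPM at 31 days. Ttk, the kinase at the top of the spindle checkpoint, was at 7.49, 2.18 and 0.636 CPM in healthy libraries, at 0 at 4 days (at least 104-fold lower, and 27.5-fold without healthy replicate 1), at 19.8, 0 and 0 CPM at 10 days and at 5.12, 4.98 and 4.04 CPM at 31 days. These bounds cover counting error only, and libraries at 0 stood beside libraries with higher levels than healthy at 10 days.

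Mki67 stood at 77.2, 201 and 50.1 CPM in healthy plasma EVs, at 15.9, 37.8 and 12.01 CPM at 4 days, at 187, 49.6 and 83.4 CPM at 10 days and at 32.6, 55.2 and 117 CPM at 31 days, with only the libraries at 4 days wholly below (log2 fold change -2.32 ± 1.11, edgeR adjusted p = 0.742). Top2a was at 55.3, 34.4 and 25.5 CPM in healthy libraries and at 29.1, 37.4 and 6.58, then 42.3, 36.8 and 51.3, then 18.9, 11.3 and 11.7 CPM in the controls, wholly below at 31 days alone. Tpx2, which activates Aurora A and nucleates spindle microtubules, was at 36.98, 16.5 and 30.9 CPM and at 12.7, 13.7 and 4.5, then 25.6, 34.3 and 19.05, then 21.5, 13.7 and 55.7 CPM, wholly below at 4 days.

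Of the 7 replication genes 5 had a lower mean in the controls at 4 days, the helicase subunits Mcm2, Mcm3, Mcm5 and Mcm6 and the reductase subunit Rrm2, of which Mcm6 alone lay wholly below. Pcna and Tyms had a slightly higher mean. Pcna was at 61.9, 25.7 and 30.7 CPM in healthy plasma EVs and at 25.3, 77.4 and 17.8, then 42.3, 36.03 and 30.7, then 25.6, 24.3 and 38.1 CPM in the controls, with a log2 fold change of 0.03 ± 0.66 at 4 days. Mcm3 was at 115, 30.4 and 97.1 CPM and at 53.4, 39.7 and 47.98, then 62.4, 21.2 and 69.6, then 29.5, 11.6 and 28.2 CPM, wholly below the healthy libraries at 31 days. The sum of the 7 replication genes was 137 to 401 CPM in healthy libraries and 144 to 164 CPM at 4 days, which overlapped, whereas the 6 kinetochore and passenger genes went from 63.5 to 166 CPM to 40.1 to 57.2 CPM.

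Ccna2, the A-type cyclin, was at 32.3, 14.04 and 3.48 CPM in healthy plasma EVs and at 0, 7.23 and 5.87, then 5.42, 9.01 and 22.9, then 8.2, 4.07 and 17.3 CPM in the controls. Ube2c, the ubiquitin-conjugating enzyme of the anaphase-promoting complex, was at 23.2, 13.1 and 0.297 CPM and at 15.4, 0 and 4.76, then 51.3, 32.9 and 17.5, then 7.45, 0 and 33.7 CPM. Both overlapped the healthy libraries at all 3 times. Birc5, the survivin subunit of the passenger complex, was at 25.5, 1.22 and 2.67 CPM and at 0, 0 and 9.39, then 0, 16.8 and 0 CPM, and had no counts at 31 days, at least 373-fold lower. This bound rested on healthy replicate 1, without which it was 59.0-fold.

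At 10 days the control mean was higher for 13 of the 35 genes (32.2% of all genes). Ect2, the activator of the contractile ring, lay wholly above the healthy plasma libraries and Ccnb2, Kif11 and Kif20a wholly below, as did 2.99% and 7.09% of all genes. At 31 days 8 means were higher (38.2% of all genes). Tyms, the thymidylate synthase, lay wholly above and Ccnb2, Cenpf, Birc5, Kif11, Top2a and Mcm3 (17.1%) wholly below, as did 3.56% and 6.46% of all genes. EdgeR called 0 members at 10 days, 0 at 31 days and 0 in the mean of the controls, each with 0% of all genes. At an unadjusted p under 0.05 there were 1, 3 and 2 members, and DESeq2 called 1, 2 and 1, all lower.

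Several lists of blood cell markers moved in the same plasma libraries. The 6 erythroid markers summed to 703 to 2118 CPM in healthy plasma EVs and to 149 to 186 CPM in the controls at 4 days, with Klf1 at 0, then to 4290 to 5520 CPM at 10 days and 1485 to 3788 CPM at 31 days. The 5 T cell markers went from 219 to 358 CPM in healthy libraries to 19.2 to 91.0 CPM at 4 days, with Cd3e at 0, and the 5 B cell markers from 49.4 to 147 CPM to 16.3 to 25.5 CPM. The 7 markers of neutrophils and their precursors went from 85.0 to 193 CPM to 492 to 2191 CPM, with Ltf at 0 in both. The 6 macrophage and monocyte markers went from 216 to 1225 CPM to 1228 to 4883 CPM, with Ms4a7 at 0 in both. The 6 platelet and megakaryocyte markers overlapped, at 921 to 16162 CPM in healthy libraries and 763 to 4353 CPM at 4 days. Their part in the result was not tested.

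With hNSCs, a single gene of all genes tested was called in plasma at 4 days, and it was Tpx2 (0.00679% of 14720 genes). It had no counts in the hNSCs libraries and 12.7, 13.7 and 4.5 CPM in the controls, at least 169-fold lower with 3 counts over the group as the floor (edgeR adjusted p = 0.000997). At 10 days it was at 113, 83.1 and 38.999 CPM with hNSCs and 25.6, 34.3 and 19.05 CPM in the controls, wholly above (log2 fold change 1.57 ± 0.71, edgeR adjusted p = 0.834). At 31 days it was at 40.04, 59.9 and 62.4 CPM and 21.5, 13.7 and 55.7 CPM, which overlapped.

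The change of the hNSCs effect between the times was called for Tpx2 alone of all genes (0.00679%, edgeR adjusted p = 0.00287), with 8 members at an unadjusted p under 0.05 and 2 called by DESeq2, Ccnb1 and Tpx2. The call at 4 days held without each library in turn, but not with only the compared groups in the fit (edgeR adjusted p = 1.00) nor in limma on FPKM (0.689 and 0.378 with pseudocounts of 1 and 0.1), while DESeq2 gave 1.37e-10. In brain EVs Tpx2 at 4 days was at 0, 21.9 and 102 CPM with hNSCs and 47.8, 36.3 and 28.8 CPM in the controls, which overlapped.

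The summed level in plasma at 4 days was 241 to 434 CPM with hNSCs and overlapped the controls, with 16 of the 35 means higher (49.5% of all genes). Tpx2 and Kif11, the motor that pushes the spindle poles apart, lay wholly below the controls and 0 genes above, as for 3.58% and 2.74% of all genes. Kif11, named after its values were seen, was at 9.88, 0 and 10.8 CPM against 14.9, 22.05 and 27.7 CPM. DESeq2 called 8 members, 4 in each direction, and 5 had an unadjusted p under 0.05 in edgeR.

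Several of these genes were at 0 in part of the hNSCs plasma libraries at 4 days. Ccnb1 was at 22.9, 0 and 2.53 CPM with hNSCs, where the controls had none. Cdk1 was at 0, 0 and 2.3 CPM and Ttk at 0, 9.66 and 0 CPM, also beside controls at 0. Ccnb2 had no counts in either arm, and Birc5 had none with hNSCs. Mki67 was at 0, 29.2 and 8.51 CPM and overlapped the controls. Top2a was at 0, 36.5 and 5.55 CPM and Pcna at 25.8, 62.4 and 21.1 CPM. Mcm3, Ccna2 and Ube2c had a library at 0 with hNSCs and overlapped the controls. Mcm3 was at 80.1, 0 and 46.7 CPM. Ccna2 was at 0, 16.3 and 3.02 CPM. Ube2c was at 0, 39.9 and 5.81 CPM.

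At 10 days 24 of the 35 means were higher with hNSCs (58.1% of all genes), and the summed level of 441 to 1370 CPM overlapped the controls at 420.0 to 883 CPM. Tpx2, Kif11 and Kif23 lay wholly above and 0 genes below, as for 5.1% and 1.95% of all genes. Kif11 was at 38.7, 25.4 and 11.04 CPM against 9.47, 0 and 6.94 CPM. Mki67 stood at 249, 428 and 62.1 CPM, with replicates 1 and 2 above every control (log2 fold change 1.21 ± 1.07). Top2a was at 37.3, 49.3 and 27.6 CPM and overlapped the controls. Pcna was at 50.4, 49.000 and 20.4 CPM. Ube2c was at 37.4, 47.1 and 25.5 CPM. Both overlapped the controls, and so did the other named genes. Mcm3 was at 92.8, 63.4 and 32.3 CPM. Ccna2 was at 19.5, 5.53 and 1.47 CPM. Ccnb1 was at 16.4, 16.5 and 3.35 CPM. For Ccnb1 all libraries with hNSCs had counts, while 1 control had none. Cdk1 was at 0, 3.89 and 2.87 CPM. Ttk was at 0, 2.17 and 4.96 CPM. Birc5 was at 7.95, 19.9 and 0 CPM. These 3 genes had a library at 0 in each arm. Ccnb2 had counts in 1 library, at 2.17 CPM, and in no library of the controls.

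At 31 days the summed level was 601 to 793 CPM with hNSCs and 283 to 616 CPM in the controls, overlapping by 1 library of each arm, and 22 of the 35 means were higher (34.8% of all genes). Cenpf, Mcm5 and Mcm6, named after their values were seen, lay wholly above and Ttk wholly below, as did 3.77% and 5.39% of all genes. Mcm6 was at 84.2, 67.1 and 41.8 CPM against 16.98, 16.3 and 32.5 CPM, and Ttk had no counts with hNSCs, at least 108-fold lower. Mki67 was at 143, 58.3 and 119 CPM and Top2a at 107, 58.4 and 15.5 CPM, which overlapped the controls. Pcna was at 25.5, 27.3 and 17.2 CPM and Ube2c at 28.9, 21.9 and 47.8 CPM. Birc5 was at 15.6, 0 and 25.6 CPM beside controls at 0, and Ccnb1 and Ccnb2 had no counts with hNSCs. The remaining named genes overlapped the controls. Mcm3 was at 26.03, 46.4 and 41.7 CPM. Ccna2 was at 16.3, 22.3 and 0 CPM. Cdk1 was at 25.1, 0 and 6.73 CPM.

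EdgeR called 0 members in plasma at 10 days, 0 at 31 days and 0 in the mean of the hNSCs groups against that of the controls, each with 0% of all genes. At an unadjusted p under 0.05 there were 1, 5 and 3 members, and DESeq2 called 1, 6 and 5. The erythroid markers summed to 106 to 361 CPM with hNSCs at 4 days, to 3055 to 10246 CPM at 10 days, which overlapped the controls, and to 6071 to 9850 CPM at 31 days, above the controls at 1485 to 3788 CPM. Their part in the result was not tested.

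Between the tissues of the same rats, the summed level of the 35 genes was higher in plasma in 14 of 21 rats. It was higher in brain EVs in all 6 rats at 4 days after stroke, where plasma was higher in 0, and in 1 control at 10 days. This order depended on the scale, since the TMM factors of these CPM were set within each tissue. At 4 days the summed FPKM was 1.53 to 13.5 in brain libraries and 22.0 to 61.7 in plasma libraries, higher in plasma in all 6 rats. With the total of all counts as the scale the order at 4 days differed between rats. With the rat as block over 42 libraries, edgeR called 15 of the 35 genes higher in plasma and 2 lower, where 24.3% of 16945 genes were higher and 34.1% lower. All 35 passed the filter, with a median log2 fold change of 3.08 against -0.42 over all genes. Since the isolation of the EVs differed too, tissue and procedure cannot be told apart.

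Of the 7 replication genes 5 were called higher, Mcm2, Mcm3, Mcm5, Mcm6 and Pcna. The call of Mcm2 was lost without hNSCs 10 days replicate 1 or 3 (edgeR adjusted p = 0.0501 and 0.0506). That of Mcm5 was lost without any 1 of hNSCs 10 days replicates 1, 2 and 3 and hNSCs 31 days replicate 3 (0.0508 to 0.0557). Pcna was higher in plasma in 21 of 21 rats (log2 fold change 3.49 ± 0.81, edgeR adjusted p = 0.000715). Mcm3 was higher in 19 rats (log2 fold change 3.11 ± 0.85). Mcm6 was higher in 16. Of the 5 checkpoint and anaphase-promoting genes 3 were called higher, among them Ube2c at 8.55 ± 1.22 (edgeR adjusted p = 2.46e-06, 18 of 21 rats), which had counts in 4 of 21 brain libraries. Of the 8 spindle and cytokinesis genes 3 were higher, namely Ect2, Nusap1 and Kif11, the last at 7.42 ± 1.26 in 17 rats and with counts in 5 brain libraries. Mean CPM, scaled within each tissue, was 0.555 in the brain and 21.6 in plasma for Ube2c. For Kif11 it was 2.34 and 14.6. Over the alternatives the log2 fold change ran from 2.44 to 9.33 for Ube2c and from 0.728 to 8.23 for Kif11. The size of these fitted folds is thus uncertain. Of the 7 kinases and cyclins 3 were higher, Ccna2, Cdk1 and Melk. DESeq2 did not call Cdk1 (adjusted p = 0.425), Melk (0.124) or Nusap1 (0.987), and edgeR without the rat block did not call Cdk1, Nusap1, Ect2 or Plk1 (adjusted p = 1.00 for each). Of the 6 kinetochore and passenger genes only Cdca8 was called, and of chromosome structure neither Mki67 (2.13 ± 1.08) nor Top2a (2.14 ± 1.04).

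Anln and Plk1 were called lower in plasma. Anln averaged 29.3 CPM in the brain and 5.12 CPM in plasma and was higher in plasma in 1 rat (log2 fold change -3.35 ± 1.02, edgeR adjusted p = 0.00679). Plk1, the Polo-like kinase, averaged 6.12 and 3.82 CPM, and its log2 fold change of -4.85 ± 1.97 (edgeR adjusted p = 0.0393) turned to 0.18 and 0.08 in limma on FPKM and lost its call without any 1 of 13 rats. By FPKM over the plasma libraries Pcna was the highest of the 35 genes at 8.01 ± 4.71 (SD, n = 21) and Ube2c next at 6.99 ± 5.30, which do not differ beyond their spread, and Cenpi was the lowest at 0.0660.

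**Figure D5:**
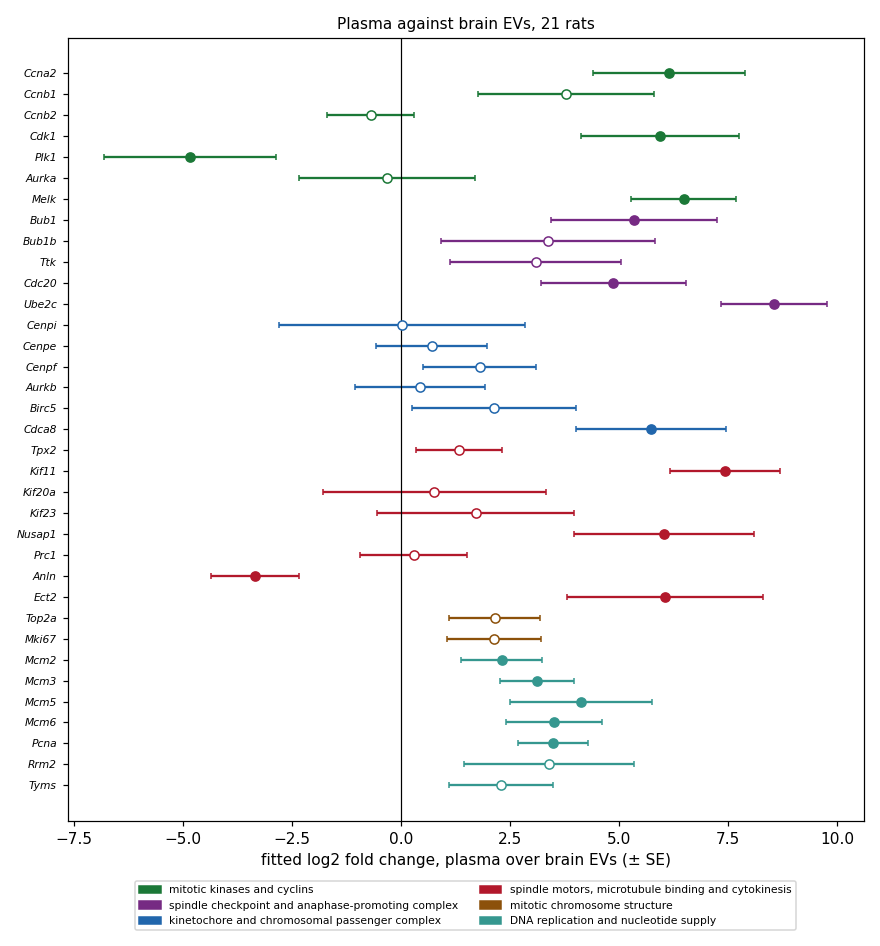
Log2 fold change of plasma over brain EVs with SE (horizontal axis) for the 35 genes (rows) in the edgeR fit over 21 rats, with called and other genes marked apart. The 5 called replication genes lie between 2.31 and 4.13, and Anln at -3.35 and Plk1 at -4.85 lie on the other side of 0.

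The wider pathway was read from 124 further cell cycle genes, 123 of them in the count table. Within the brain 91 were tested and 0 passed in edgeR in any comparison, with 29 at an unadjusted p under 0.05 in the controls at 4 days. No share of all genes is given for that count, so it does not show a difference from genes in general. In plasma 119 were tested and 1 passed, Cdc25b, the phosphatase that activates Cdk1. It was at 471 to 1093 CPM in healthy plasma EVs and 26.3 to 69.3 CPM in the controls at 4 days (log2 fold change -3.95 ± 0.68, edgeR adjusted p = 0.0206), then at 1738 to 2157 CPM at 10 days. Between the tissues 37 of the 123 were higher in plasma and 12 lower, where 24.3% of 16945 genes were higher and 34.1% lower. The 4 called genes with the largest fitted changes had few counts in a tissue, so their fitted folds are not given. The kinetochore subunit Cenpw had counts in 1 brain and 11 plasma libraries. Pttg1, the securin that guards sister cohesion, had counts in 6 brain and 17 plasma libraries. Ccne1, the cyclin of S phase entry, was lower in plasma, with counts in 15 brain and 4 plasma libraries. Cdkn3, a phosphatase acting on cyclin-dependent kinases, had counts in 0 brain and 12 plasma libraries and was at least 137-fold higher in plasma with 3 counts over the 21 brain libraries as the floor. Of 15 cell cycle inhibitors and p53 targets, 12 were tested within each tissue and 0 passed. Between the tissues 7 of 13 were higher in plasma and 1 lower, beside the same shares of all genes.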

How the data were processed

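EV mRNA of 21 rats was measured in 42 libraries, a brain and a plasma library per rat. The authors made stranded total RNA libraries, removed adapters and low-quality reads and aligned paired reads with Bowtie2 to the rat build Rnor_6.0. The deposited counts are whole reads per gene, and the deposited FPKM values were computed by the authors with StringTie. The versions of Bowtie2 and StringTie, the strand setting and the counting step are not given in the sources used here. A further 7855 features without annotation were left out, as was the miRNA data.

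The counts were tested with edgeR 4.0.16 (R 4.3.3) by quasi-likelihood fits over the 7 groups of a tissue, with TMM factors, a filter on low counts and Benjamini-Hochberg adjustment. A gene was called at an adjusted p under 0.05 and a fold above 1.5. Both tissues were compared in an edgeR fit with the rat as block. Replicates were separate rats. The test was checked on simulated counts. DESeq2 1.42.0 and limma 3.58.1 were alternatives, beside no filter, median-ratio size factors, new genes kept, a replicate block, only the compared groups and each library left out. Limma was run on log2(FPKM + 1) and log2(FPKM + 0.1), for genes with a mean FPKM of at least 1 in at least 1 group. Intervals are not given for single counts, and bounds against groups at 0 use 3 counts over the group and cover counting error only.

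The members and all gene lists, markers included, were chosen with earlier results of these data known. Genes were named by a rule that took genes called within a tissue, the gene with the highest mean FPKM and the gene with the lowest p in each role group and tissue, and the proliferation markers Mki67, Top2a, Pcna, Cdk1 and Ccnb1, together with up to 4 called pathway genes per comparison, and other names are said to be chosen after their values were seen. Marker lists were summed as CPM.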

Additional observations from a re-analysis of the deposited data

Results flagged for a closer look

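The effect of hNSCs on plasma Tpx2 differed between 4, 10 and 31 days (edgeR adjusted p = 0.00287 for the change between the times). At 4 days its 3 hNSCs libraries were at 0 below the controls, and at 10 days all 3 lay above the controls by a mean of 51.98 CPM. Limma on FPKM did not call this change for Tpx2. Plasma Kif11 showed the same order, wholly below the controls at 4 days and wholly above them at 10 days, by a mean of 19.6 CPM. The test of the change between the times did not call Kif11. For the pair of days alone the difference was not tested for either gene.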

How the results depend on the processing

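For brain EVs DESeq2 called 7 of the 35 genes in place of 1 in the reported edgeR fit in the controls at 4 days, 3 in place of 0 at 10 days, 1 in place of 0 at 31 days, 4 in place of 0 in the mean of the controls, 5 in place of 0 for hNSCs at 10 days, 2 in place of 0 in the mean of the hNSCs groups and 1 in place of 0 for the change between the times. For plasma EVs it called 4, 1 and 2 in place of 0 in the controls at 4, 10 and 31 days, 1 in the mean of the controls, 8 in place of 1 for hNSCs at 4 days, 1 and 6 in place of 0 at 10 and 31 days, 5 in place of 0 in their mean and 2 in place of 1 for the change between the times. Without the share of all genes that DESeq2 called, these counts do not show whether the members differed from genes in general. In the brain limma tested 1 of the 35 genes, Pcna, since the others had a mean FPKM under 1 in every group. It could thus neither keep nor lose the call of Mki67. With either pseudocount it called 0 in place of 1 in brain controls at 4 days and 1, Pcna, in place of 0 at 31 days. In plasma, where it tested 27 of the 35, it called 0 in place of 1 both for hNSCs at 4 days and for the change between the times, and with the pseudocount of 0.1 it called 1, Pcna, in the mean of the brain controls. With only the groups compared, edgeR called 5 in brain controls at 4 days and 0 for plasma hNSCs at 4 days. Leaving out each library gave 0 to 2 calls in brain controls at 4 days, 0 to 1 at 10 days, 0 to 1 in their mean, 0 to 1 for hNSCs at 10 days in the brain, and 15 to 22 between the tissues. Without control 10 days replicate 1, Cenpf joined the calls in brain controls at 4 days, Mki67 was called at 10 days and in the mean, and Cenpf for hNSCs at 10 days. Without hNSCs 4 days replicate 1, Cenpe was called for hNSCs at 10 days. The cause was not tested. The log2 fold change of brain hNSCs against controls without each library ran from -0.73 to 0.64 for Mki67 and from -0.48 to 0.22 for Top2a at 4 days, and from -0.57 to 0.58 for Mki67 and from -0.44 to 0.60 for Top2a at 31 days. That of Plk1 between the tissues was 0.18 and 0.077 in limma with the pseudocounts of 1 and 0.1.

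Replicate numbers name different rats in each group, so by design they do not pair the libraries of a tissue. The median same-number correlation was -0.00346 in the brain and -0.0117 in plasma, against 0.00619 and 0.0079 for different numbers. Of the same-number correlations 7 of 63 in the brain and 3 of 63 in plasma were over 0.1. In the brain 9 of 21 libraries correlated best with their own number, and in plasma 2 of 21 did. With the replicate block the calls were 1 in brain controls at 4 days and 1 for plasma hNSCs at 4 days, and the log2 fold change of Top2a for brain hNSCs at 4 days was 0.15. Of all counts of calls under the alternatives, 507 stayed within 1.5 times the reported count and 37 moved further. Most reported counts were 0, and a 0 that stayed 0 is among the 507, so this tally does not measure how stable the calls were. The alternatives to the summed level (other scales, FPKM, Mki67 or the replication genes left out) were chosen after seeing the data, and 6 of these moved by over 1 SD.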
